A study of Mus musculus with 6 samples.

Results

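The genes described here are 10 genes of the purinergic system in mouse bone marrow-derived macrophages (BMDMs): the adenosine receptors Adora2a and Adora2b, the ATP-gated channels P2rx4 and P2rx7, the nucleotide receptors P2ry2, P2ry6, P2ry12, P2ry13 and P2ry14, and the ectoenzyme gene Entpd1. They were chosen by name, through the GENCODE M21 symbol of each Ensembl identifier, and are 10 of the 55335 genes in the count table. The study sequenced total RNA from BMDMs given PBS (control, n = 3) or bacterial lipopolysaccharide (LPS, n = 3) and collected after 1 h. The cells came from bone marrow of C57BL/6 mice and are named WT in the library names. They were grown for 6 d in medium with serum and conditioned medium of L929 cells, a fibroblast line whose secreted CSF1 drives macrophage growth. The study's methods name male mice of 7 to 10 weeks of age in general, and give no LPS dose for these libraries. The labels number the libraries 1 to 3 in each group and call the same numbers batches. Whether the numbers stand for separate mice or cultures is not stated, so the p-values below measure the spread between these samples, which may be technical.

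Purinergic signalling is the use of nucleotides and nucleosides outside the cell as messengers. Damaged or activated cells release ATP and UTP through channels and hemichannels, and these open P2X channels or bind P2Y receptors, which couple to G proteins. Ectoenzymes then remove phosphates step by step. CD39, the product of Entpd1, turns ATP and ADP into AMP, and CD73, the product of Nt5e, turns AMP into adenosine, which acts on the P1 receptors. In macrophages, ATP at the P2X7 channel is a classical trigger of the NLRP3 inflammasome and of IL-1β release, whereas adenosine at the receptors encoded by Adora2a and Adora2b raises cyclic AMP and is known to dampen cytokine production.

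The libraries held 37787611 to 41516330 counts, and 3 counts, taken as the floor of detection, equalled 0.0630 to 0.0919 normalized CPM (counts scaled to a common library total after TMM correction). This floor covers counting error only. TMM factors were 1.15 in each control library and 0.864 to 0.872 in the LPS libraries. Scaling by library size alone therefore moved the median log2 fold change of all tested genes by -0.40, and scaling by the upper quartile by -0.14. For this reason P2rx4, P2rx7, P2ry6, P2ry12, P2ry13 and P2ry14 are also given with their value relative to that median. Small changes of other genes are given without it. All 8 macrophage markers on the list passed the filter on low counts and summed to 29650.3 to 30923 CPM in control and 32385 to 32712 CPM in LPS libraries. The 5 T cell markers summed to at most 1.46 CPM, the 4 B cell markers to at most 1.49 CPM and the 4 mast cell markers to at most 1.10 CPM, with Mcpt4 and Tpsb2 at 0 in all libraries. Markers of dendritic cells rose in 4 of 4 genes, from 3.15 to 4.01 CPM summed in control to 9.61 to 10.6 CPM in LPS. Summed neutrophil markers went from 33.6 to 35.8 CPM in control to 44.2 to 46.2 CPM in LPS, platelet markers from 18.0 to 19.6 CPM to 32.3 to 33.0 CPM, endothelial markers from 35.4 to 38.6 CPM to 45.0 to 48.7 CPM, and fibroblast markers from 8.83 to 9.88 CPM to 9.78 to 12.1 CPM. Among the platelet markers Pf4 made up most of the sum (13.03 CPM in control and 26.16 CPM in LPS). By edgeR's quasi-likelihood test Pf4 had a log2 fold change of 1.01 (adjusted p = 2.81e-11) and Itga2b 0.31 (adjusted p = 0.0367). Ppbp was at 0.01 (adjusted p = 0.965) and Gp9 at -0.82 (adjusted p = 0.0718). Among the endothelial markers Kdr made up most of the sum (34.7 and 41.1 CPM), with a log2 fold change of 0.24 (adjusted p = 2.62e-04, same test). Cdh5 was at 1.84 (adjusted p = 5.04e-08) and Pecam1 at 0.64 (adjusted p = 0.00126), while Tek did not pass the filter on low counts. S100a8 (11.3 and 14.9 CPM) and S100a9 (19.3 and 25.0 CPM) made up most of the neutrophil sum. Ly6g had 0, 0 and 1 counts without LPS and 0, 3 and 0 with it, and Mpo, Elane and Camp did not pass an adjusted p of 0.05. The part of these cell types in the results below was not tested, and in these bulk libraries fewer cells of a type and less RNA per cell cannot be told apart.

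The promoters of 4 members are shown because these genes cover the range of responses seen below: Adora2b and P2ry2, which rose, P2rx7, which fell, and P2ry12, which did not pass the test. Each is a RefSeq window on GRCm38.p6, from 250 bases before to 50 bases after the annotated start, read 5′ to 3′ on the gene's strand. The windows lie at chr11:62248734-62249033 (plus strand) for Adora2b, chr7:101012004-101012303 (minus strand) for P2ry2, chr5:122643677-122643976 (plus strand) for P2rx7 and chr3:59262936-59263235 (minus strand) for P2ry12. Capitals mark the motif matches named after the sequences, and a match on the opposite strand stands as its reverse complement.
Adora2b: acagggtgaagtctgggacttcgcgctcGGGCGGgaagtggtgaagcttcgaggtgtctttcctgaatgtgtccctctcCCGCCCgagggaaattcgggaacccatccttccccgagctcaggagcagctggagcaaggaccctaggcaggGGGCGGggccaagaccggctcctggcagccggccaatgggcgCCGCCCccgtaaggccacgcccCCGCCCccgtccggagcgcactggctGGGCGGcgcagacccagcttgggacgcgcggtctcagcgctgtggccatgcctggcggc
P2ry2: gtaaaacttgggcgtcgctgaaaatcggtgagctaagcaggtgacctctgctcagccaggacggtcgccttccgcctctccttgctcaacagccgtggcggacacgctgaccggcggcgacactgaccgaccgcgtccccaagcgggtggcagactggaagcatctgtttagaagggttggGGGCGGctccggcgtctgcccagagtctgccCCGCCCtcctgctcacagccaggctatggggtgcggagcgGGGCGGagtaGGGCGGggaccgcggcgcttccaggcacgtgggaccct
P2rx7: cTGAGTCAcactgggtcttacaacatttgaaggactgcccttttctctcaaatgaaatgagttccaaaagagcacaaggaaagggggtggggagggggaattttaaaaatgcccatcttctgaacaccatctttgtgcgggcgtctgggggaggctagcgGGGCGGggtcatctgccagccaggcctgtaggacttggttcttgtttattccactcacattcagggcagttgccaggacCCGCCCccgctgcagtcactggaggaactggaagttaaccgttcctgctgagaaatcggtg
P2ry12: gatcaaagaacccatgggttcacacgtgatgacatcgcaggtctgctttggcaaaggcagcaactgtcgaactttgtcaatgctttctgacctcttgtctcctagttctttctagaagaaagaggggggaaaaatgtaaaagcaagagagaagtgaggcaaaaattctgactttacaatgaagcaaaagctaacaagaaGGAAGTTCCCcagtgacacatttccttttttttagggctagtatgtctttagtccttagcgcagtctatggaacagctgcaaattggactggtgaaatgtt

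The motifs were searched on both strands: the GC box (GGGCGG), the AP-1 site (TGANTCA), the CRE core (TGACG), the full CRE (TGACGTCA, which contains the core) and the NF-kB consensus. Of 32851 RefSeq windows of 300 bases, 35.7% held a GC box, 7.81% an AP-1 site, 20.8% a CRE core, 1.79% a full CRE and 8.46% an NF-kB consensus. The symbol matched 14 windows of 8 members, and not Adora2a or P2ry6. The window of Adora2b was rich in G and C (70.0%, with 27 CpG pairs, against a median of 52.7% G and C over all windows) and held 6 GC boxes. The first window of P2ry2 was alike in this respect, with 67.3% G and C, 28 CpG pairs and 4 GC boxes. The first window of P2rx7 held 1 AP-1 site, which starts at position -249, and 2 GC boxes. Positions count from the RefSeq start on which each window is built, which can differ from the GENCODE gene start given below. The window of P2ry12 had 42.3% G and C and held 1 NF-kB consensus match, on the opposite strand at position -51. It was the 1 window of the 14 with such a match, while the windows of Adora2b and P2ry2 held none. Of the other members, P2rx4 had 2 CRE cores and 1 GC box, P2ry14 1 AP-1 site in each of 2 of its 4 windows, Entpd1 1 CRE core in each of its 2 windows, and P2ry13 had no match. These matches describe letters in the window and say nothing of what binds there.

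Both adenosine receptors and P2ry2 were higher after 1 h of LPS by several-fold, Entpd1 was higher by a smaller factor, P2rx7 was lower, and P2rx4, P2ry12, P2ry13 and P2ry14 did not pass the test. All 10 members passed the filter on low counts. By edgeR's quasi-likelihood test, 3 of 10 members passed both criteria (adjusted p under 0.05, log2 fold change beyond 1 in either direction), and all 3 were higher in LPS. Over all 15687 tested genes 20.9% passed both criteria, 10.5% as higher and 10.4% as lower. At an adjusted p under 0.05 alone, 6 of 10 members passed, 5 higher and 1 lower, where the share of all tested genes was 67.7% (32.9% higher and 34.9% lower). The normalized CPM of the groups did not overlap in 6 members, 5 higher and 1 lower in LPS, against 70.5% of all tested genes (33.9% higher and 36.6% lower). The share of members that passed the adjusted p alone was thus close to that of all genes. The median log2 fold change was 0.21 over the members and -0.01 over all tested genes. With scaling by library size alone, 4 members were higher and 5 lower at an adjusted p under 0.05, as were 2355 and 10336 of all tested genes, in place of 5159 and 5467.

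**Figure D1:**
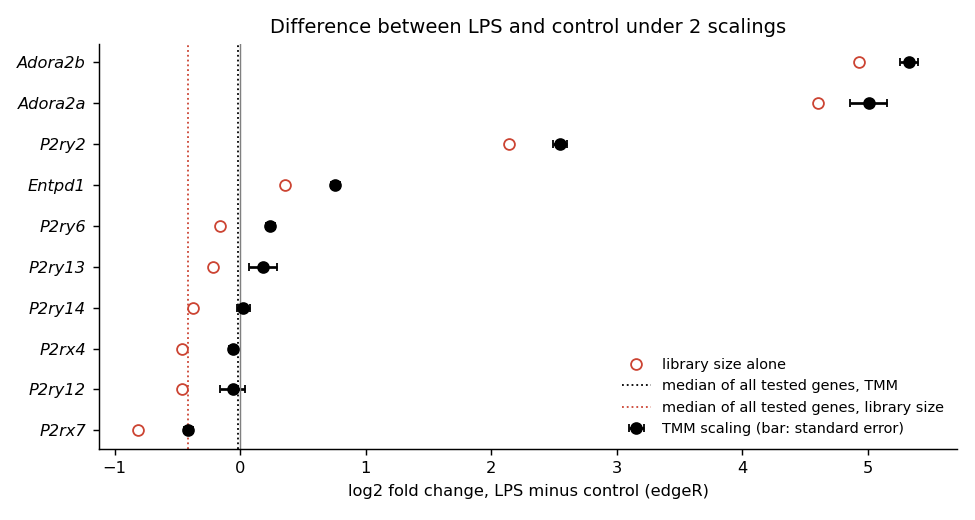
Log2 fold change (LPS against control) of each of the 10 members, from edgeR's fit on 3 libraries per group. Filled points with bars of 1 standard error use TMM scaling, open points library size alone, and dotted lines mark the median of all tested genes under each. Adora2b (5.33), Adora2a (5.01) and P2ry2 (2.55) stand beyond 1, and P2rx7 (-0.41) is the lowest.

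Both adenosine receptors couple to the stimulatory G protein and so raise cyclic AMP, and the one encoded by Adora2a binds adenosine more tightly than the one encoded by Adora2b. Adora2b (ENSMUSG00000018500.2, chromosome 11, 62248984 to 62266453, plus strand, GRCm38) had 105, 81 and 81 counts without LPS and 2721, 2535 and 2517 with it. On the normalized scale it went from 1.92 ± 0.249 CPM (SD, n = 3) in control to 77.5 ± 3.56 CPM in LPS. The lowest LPS library, at 73.9 CPM, was far above the highest control library, at 2.20 CPM. Adora2b was 40.3-fold higher, with a log2 fold change of 5.33 (SE 0.07, adjusted p = 1.02e-20, from the edgeR test used for all values below), and ranked 165 from the top by log2 fold change among all tested genes.

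Adora2a (ENSMUSG00000020178.6, chromosome 10, 75316877 to 75334784, plus strand) had 13, 18 and 25 counts without LPS and 465, 420 and 425 with it. All control values were above the floor but low, between 0.273 and 0.542 CPM, and all LPS values lay between 12.5 and 13.8 CPM. The mean went from 0.404 ± 0.134 to 13.1 ± 0.706 CPM (SD, n = 3). The log2 fold change was 5.01 (SE 0.15, adjusted p = 1.24e-15), or 32.2-fold. Its standard error was larger than that of Adora2b. Leaving out 1 library at a time gave log2 fold changes of 4.78 to 5.28 for Adora2a and 5.27 to 5.45 for Adora2b.

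P2Y2, the receptor for ATP and UTP, and P2Y6, the receptor for UDP, both couple to Gq and release calcium from stores. P2ry2 (ENSMUSG00000032860.5, chromosome 7, 100996568 to 101012866, minus strand) had 535, 629 and 587 counts without LPS and 2540, 2385 and 2476 with it. Normalized values were 11.2, 13.9 and 12.7 CPM in control and 75.6, 73.0 and 72.7 CPM in LPS. Each group was narrow and the gap between them wide. The mean rose 5.85-fold, from 12.6 ± 1.35 to 73.8 ± 1.61 CPM (SD, n = 3), with a log2 fold change of 2.55 (SE 0.06, adjusted p = 3.12e-17).

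P2ry6 (ENSMUSG00000048779.5, chromosome 7, 100937630 to 100974649, minus strand) had 7491, 7149 and 7089 counts without LPS and 6043, 6273 and 6197 with it. The raw counts were thus lower in LPS, while the normalized values were higher, at 156.3 ± 2.43 CPM in control and 184.7 ± 6.49 CPM in LPS (SD, n = 3). The log2 fold change was 0.24 with TMM scaling (SE 0.03, adjusted p = 6.83e-06) and -0.16 with library size alone (adjusted p = 2.38e-04), so the direction of P2ry6 depends on the scaling. Relative to the median of all tested genes it was 0.25 higher under either scaling on the log2 scale.

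P2X4 and P2X7 are channels opened by ATP. P2X4 responds to low ATP, and P2X7 needs high ATP and is the channel tied to NLRP3. P2rx7 (ENSMUSG00000029468.17, chromosome 5, 122643911 to 122691432, plus strand) had 5636, 5493 and 5484 counts without LPS and 3079, 2864 and 3068 with it. Normalized values were 118.3, 121.5 and 118.8 CPM in control and 91.7, 87.7 and 90.1 CPM in LPS. The groups did not overlap. The mean of P2rx7 in LPS was 0.752 times that in control, with a log2 fold change of -0.41 (SE 0.03, adjusted p = 5.22e-09), and -0.40 relative to the median of all genes. It was the 1 member that fell by edgeR's test with TMM scaling.

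P2rx4 (ENSMUSG00000029470.15, chromosome 5, 122707544 to 122729738, plus strand) had normalized values of 279.0, 296.4 and 286.3 CPM in control and 271.7, 286.7 and 269.9 CPM in LPS libraries. The groups overlapped. Its log2 fold change was -0.06 (SE 0.04, adjusted p = 0.163) and -0.04 relative to the median of all genes, and with library size alone it was -0.46 (adjusted p = 1.72e-09), which moved with the median.

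P2Y12 and P2Y13 bind ADP and P2Y14 binds UDP-glucose. All couple to the inhibitory G protein, and P2Y12 is known for platelets and microglia. P2ry12 (ENSMUSG00000036353.13, chromosome 3, 59216272 to 59262871, minus strand) had 201, 189 and 200 counts without LPS and 140, 138 and 130 with it, or 4.24 ± 0.0786 and 4.07 ± 0.221 CPM (SD, n = 3). P2ry13 (ENSMUSG00000036362.2, chromosome 3, 59207892 to 59210882, minus strand) had 197, 162 and 168 counts without LPS and 143, 130 and 159 with it, or 3.79 ± 0.304 and 4.30 ± 0.346 CPM. P2ry14 (ENSMUSG00000036381.13, chromosome 3, 59113855 to 59153618, minus strand) had 1508, 1318 and 1383 counts without LPS and 998, 979 and 1116 with it, or 30.3 ± 1.27 and 30.8 ± 1.69 CPM. In each of the 3 genes the normalized groups overlapped. The log2 fold changes were -0.06 for P2ry12 (SE 0.10, adjusted p = 0.613), 0.18 for P2ry13 (SE 0.11, adjusted p = 0.147) and 0.03 for P2ry14 (SE 0.05, adjusted p = 0.661). Relative to the median of all genes they were -0.05, 0.20 and 0.04. Among microglia markers, Sall1 was at 0 in all libraries and Tmem119 had 13, 13 and 5 counts without LPS and 26, 33 and 18 with it.

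Entpd1 (ENSMUSG00000048120.16, chromosome 19, 40612366 to 40741602, plus strand) encodes CD39, the ectoenzyme that starts the path from ATP to adenosine. It had 7792, 6933 and 7309 counts without LPS and 8951, 8683 and 9260 with it. Normalized values were 163.6, 153.4 and 158.3 CPM in control and 266.6, 265.9 and 271.9 CPM in LPS. The groups did not overlap. Entpd1 rose 1.69-fold, with a log2 fold change of 0.76 (SE 0.03, adjusted p = 7.00e-13), which passed the adjusted p but not the log2 fold change of 1. With library size alone its log2 fold change was 0.35.

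**Figure D2:**
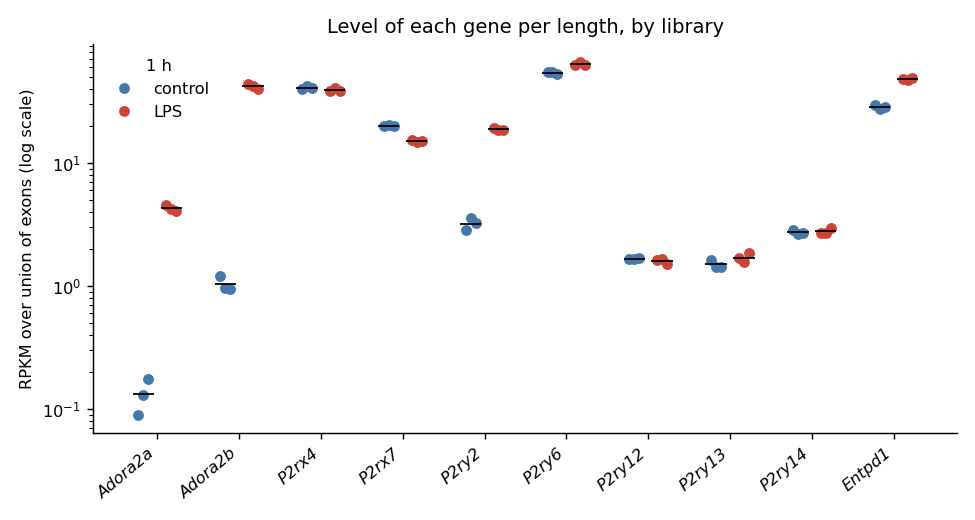
Level of each member per length (RPKM, log axis) in the 3 control and 3 LPS libraries, each point 1 library and each bar the group mean. Adora2a and Adora2b are the lowest of the 10 in control, at 0.132 and 1.04 RPKM, and Adora2b reaches 42.0 RPKM in LPS, beside P2rx4 at 39.3 RPKM.

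Levels were compared between genes as RPKM, the normalized CPM per kilobase of the union of GENCODE M21 exons. In control libraries P2ry6 was highest at 54.1 ± 0.843 RPKM (SD, n = 3), followed by P2rx4 at 40.9 ± 1.24, Entpd1 at 28.4 ± 0.912 and P2rx7 at 20.0 ± 0.290 RPKM. Then came P2ry2 at 3.21 ± 0.343 and P2ry14 at 2.74 ± 0.115 RPKM, whose ranges overlapped, P2ry12 at 1.67 ± 0.0309, P2ry13 at 1.498 ± 0.120, Adora2b at 1.04 ± 0.135 and Adora2a at 0.132 ± 0.0439 RPKM. The ranges of all other neighbours in this order did not overlap. In LPS libraries the order was P2ry6 at 64.0 ± 2.25, Entpd1 at 48.1 ± 0.593, Adora2b at 42.0 ± 1.93, P2rx4 at 39.3 ± 1.32, P2ry2 at 18.8 ± 0.410, P2rx7 at 15.0 ± 0.337, Adora2a at 4.27 ± 0.231, P2ry14 at 2.79 ± 0.153, P2ry13 at 1.70 ± 0.137 and P2ry12 at 1.60 ± 0.0869 RPKM. Here the ranges of Adora2b and P2rx4 overlapped, as did those of P2ry13 and P2ry12, and no other neighbours did. The length used matters for P2rx4. Over the longest transcript it was 70.9 RPKM in LPS, above Entpd1 at 63.5 and Adora2b at 42.0 RPKM.

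The make-up of the receptor set differed between the groups. Of the summed RPKM of the 9 receptors, Adora2b made up 0.829 ± 0.114% in control and 22.2 ± 0.816% in LPS libraries (SD, n = 3), and Adora2a 0.105 ± 0.0356% and 2.25 ± 0.111%. Both adenosine receptors together thus went from 0.935 ± 0.0880% to 24.4 ± 0.924%. The share of P2rx4 and P2rx7 together went from 48.6 ± 0.606% to 28.7 ± 0.226%, and that of P2ry12, P2ry13 and P2ry14 from 4.71 ± 0.245% to 3.22 ± 0.166%. P2ry2 went from 2.56 ± 0.241% to 9.92 ± 0.251% and P2ry6 from 43.2 ± 0.536% to 33.8 ± 0.874%. A share can fall because others rose, as for P2rx4, whose own level did not pass the test. The shares use the exon union as length. With the longest transcript, the adenosine pair went from 0.626% to 17.9%.

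**Figure D3:**
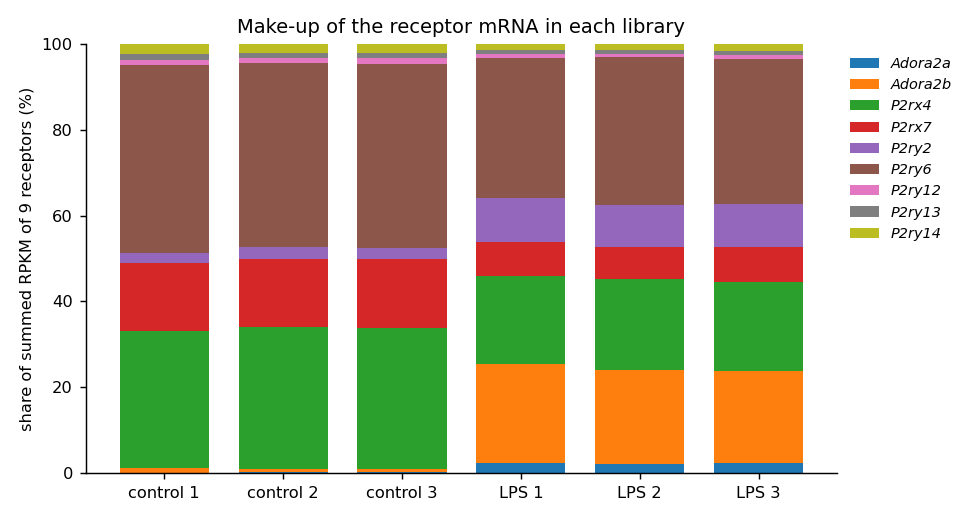
Share of each of the 9 receptors in their summed RPKM (percent, stacked bars from 0) in the 3 control and 3 LPS libraries. The adenosine receptors together hold 0.935% on average in control and 24.4% in LPS libraries, and P2ry6 holds the largest share in every library.

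Ratios of paired receptors within a library do not depend on the scaling. With 3 libraries per group the exact two-sided permutation test cannot give a p below 0.1, and 5 ratios were compared. The ratio of P2ry6 to P2ry2, per length, was 19.0, 15.5 and 16.4 in control and 3.24, 3.58 and 3.40 in LPS libraries, so the groups were apart (exact permutation p = 0.1, 0.25 adjusted over the 5 ratios). The ratio of P2rx4 to P2rx7 was 2.00, 2.07 and 2.05 in control and 2.52, 2.78 and 2.55 in LPS libraries, again apart (exact permutation p = 0.1, adjusted 0.25). The ratio of Adora2a to Adora2b was 0.0746, 0.134 and 0.186 in control and 0.103, 0.0998 and 0.102 in LPS libraries. These groups overlapped (exact permutation p = 0.7, adjusted 0.7), and the control values rest on the 13 to 25 counts of Adora2a. The ratios of P2ry13 and of P2ry14 to P2ry12 changed by 0.25 and 0.09 on the log2 scale, with exact permutation p = 0.2 (adjusted 0.333) and p = 0.5 (adjusted 0.625).

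Several members are neighbours in the genome. P2ry6 and P2ry2 lie 21918 bases apart on the minus strand of chromosome 7, and P2rx7 and P2rx4 lie 16111 bases apart on the plus strand of chromosome 5. In either pair the ratio of the neighbours did not overlap between the groups, as given above. Beyond P2ry2, Fchsd2 had a log2 fold change of 1.54 (adjusted p = 3.81e-17). P2ry12, P2ry13 and P2ry14 all lie within the span of Med12l on the opposite strand. The exons of Med12l overlapped those of P2ry12 by 9 bases and those of P2ry13 and P2ry14 by none. Med12l had 111, 90 and 92 counts without LPS and 48, 42 and 45 with it (log2 fold change -0.64, adjusted p = 0.0014). In the same cluster, Gpr171, a G protein-coupled receptor gene 12033 bases from P2ry14, had 44, 40 and 36 counts without LPS and 130, 118 and 142 with it. Gpr171 had a log2 fold change of 2.17 (SE 0.15, adjusted p = 3.14e-10). On either side of Adora2b, Zswim7 had a log2 fold change of 0.68 (adjusted p = 5.3e-05) and Specc1 0.21 (adjusted p = 5.61e-05, and -0.19 with library size alone). Zswim7 lies on the opposite strand, and the 770 bases between it and Adora2b separate the ends of both genes, not their starts. On either side of Adora2a, Specc1l had a log2 fold change of 0.74 (adjusted p = 7.11e-13) and Gucd1 -0.23 (adjusted p = 5.82e-04). Arhgef17, beside P2ry6, was at 0.78 (adjusted p = 0.00453), Ift81, beside P2rx7, at -0.47 (adjusted p = 0.0122) and Camkk2, beside P2rx4, at -0.03 (adjusted p = 0.444). Tctn3, 132 bases from Entpd1 on the opposite strand, was at -0.02 (adjusted p = 0.842).

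Likeness to the highest and the lowest member was measured as the Euclidean distance in log2 CPM over the 6 libraries, among tested protein-coding genes. Nearest to Adora2b were Serpinb2 (distance 0.517, from 2.02 to 66.4 CPM), Gpr84 (0.863) and Mt2 (1.07). Nearest to P2rx7 were Coa5 (0.128), Rps6ka1 (0.145) and Actr1a (0.152).

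The other genes of the pathway were taken from 5 lists of 61 genes, of which 46 were tested. Of these 46, 10 were higher and 2 lower past both criteria, where 10.5% and 10.4% of all tested genes were. At an adjusted p under 0.05, 22 were higher and 8 lower, where 32.9% and 34.9% of all tested genes were. With library size alone the latter counts were 12 and 28 in the lists, and 2355 and 10336 of the 15687 tested genes.

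Of the 11 other P1 and P2 receptors, 6 were tested, 1 rose and 1 fell past both criteria, and the median log2 fold change was 0.11. P2ry10, a receptor named with the P2Y family that is known to bind lysophospholipids, had 8, 27 and 17 counts without LPS and 100, 116 and 98 with it. The groups of P2ry10 did not overlap, and its log2 fold change was 3.05 (SE 0.25, adjusted p = 5.22e-09). P2rx6 had 17, 15 and 16 counts without LPS and 4, 7 and 6 with it, a log2 fold change of -1.01 (SE 0.38, adjusted p = 0.0255). P2rx6 passed both criteria in 6 of the 13 alternatives that tested it, and leaving out control replicate 1 or 3, or LPS replicate 1 or 3, ended that call, with values of -1.21 to -0.82 over all 6 libraries left out in turn. The other tested genes of the list lay between -0.11 and 0.57 (log2 fold change). Adora3 had 53, 43 and 52 counts without LPS and 41, 63 and 54 with it. Its log2 fold change was 0.57 (adjusted p = 0.0162) but 0.16 with library size alone (adjusted p = 0.449), so its call depends on the scaling. Adora1 was at 0 in all libraries.

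The list of extracellular nucleotide and adenosine enzymes held 16 genes, and not all of their products act outside the cell. Of the 16 genes, 10 were tested, 2 rose and none fell past both criteria, with a median log2 fold change of 0.15. Nt5e, which encodes CD73, had 4, 4 and 7 counts without LPS and 26, 23 and 18 with it. The counts of Nt5e were low in both groups but did not overlap, and its log2 fold change was 2.60 (SE 0.37, adjusted p = 6.59e-06). Entpd7, an intracellular member of the Entpd1 family, rose from 1524, 1346 and 1475 counts to 2982, 2838 and 3067 counts, a log2 fold change of 1.504 (SE 0.04, adjusted p = 3.85e-16). The genes of the enzymes that remove adenosine gave -0.16 for Ada (adjusted p = 0.307) and 0.08 for Adk (adjusted p = 0.163). The tested genes not past both criteria lay between -0.31 and 0.65 on the log2 scale. Entpd4 has a near-identical copy and its count is uncertain.

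Of the 13 genes of nucleotide release and nucleoside transport, 11 were tested, 4 rose and none fell past both criteria, and the median was 0.15. Gja1, which encodes the hemichannel protein connexin 43, had 38, 52 and 54 counts without LPS and 1723, 1667 and 1774 with it. The groups of Gja1 were far apart, with a log2 fold change of 5.63 (SE 0.08, adjusted p = 4.16e-20). The volume-regulated anion channel subunit genes Lrrc8d (2.25), Lrrc8b (1.45) and Lrrc8c (1.18) rose, while Lrrc8a, the obligatory subunit, was at 0.15 (adjusted p = 0.149). Panx1, the pannexin channel that releases ATP, was at 0.04 (adjusted p = 0.573). The nucleoside transporter gene Slc29a3 fell, with a log2 fold change of -0.62 (adjusted p = 3.86e-10), the lowest of the genes not past both criteria, which reached 0.15.

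Of 14 genes of G protein alpha subunits and adenylyl cyclases, 12 were tested. Gna13 rose (log2 fold change 1.40, adjusted p = 6.86e-17) and Gna11, one of the Gq class through which P2Y2 and P2Y6 signal, fell from 435, 402 and 375 to 91, 96 and 86 counts (-1.68, adjusted p = 6.81e-11). Also of the Gq class, Gnaq was at 0.75 (adjusted p = 5.52e-13) and Gna15 at -0.76 (adjusted p = 2.91e-09). The genes of this list not past both criteria lay between -0.76 and 0.75. Gnas, the stimulatory subunit through which both adenosine receptors signal, was at 0.32 (adjusted p = 1.58e-07) but at -0.08 with library size alone. All 7 genes of the P2X7 and NLRP3 path were tested, and 2 rose past both criteria: Il1b (log2 fold change 11.77) and Nlrp3 (5.04). Casp1 was at 0.02 (adjusted p = 0.742), and Pycard, the adaptor between NLRP3 and caspase-1, fell with a log2 fold change of -0.40 (adjusted p = 1.03e-07). The other 5 genes of that path, these included, lay between -0.40 and 0.75.

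**Figure D4:**
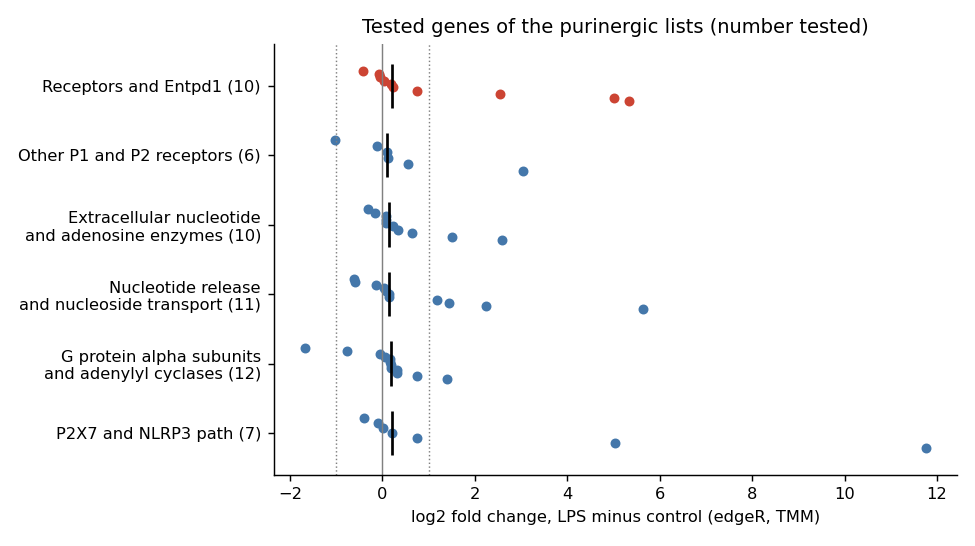
Log2 fold change (LPS against control) of the tested genes in the members and the 5 pathway lists, each point 1 gene, the members in red, the lists in blue, the median of each as a black line and dotted lines at -1 and 1. Il1b (11.77), Gja1 (5.63), Adora2b (5.33), Nlrp3 (5.04) and Adora2a (5.01) lie highest, while the list medians lie between 0.11 and 0.21.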

How the data were processed

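The deposited table holds raw counts per gene for 3 control (PBS) and 3 LPS libraries of total RNA from BMDMs at 1 h. The authors prepared libraries with a stranded globin-depletion total RNA kit, sequenced them paired-end, aligned reads to GRCm38 with HISAT2 (version 2.1.0), handled files with SAMtools (version 1.17), checked quality with FastQC (version 0.11.9) and counted with featureCounts (version 2.0.0). The annotation release, strand setting and treatment of multi-mapped reads are not given in the sources used here, so reads shared with copies or overlapping genes may be split or lost. Versions were removed from Ensembl identifiers, and 55154 of 55335 had a GENCODE M21 symbol.

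Counts were analysed in R 4.3.3 with edgeR 4.0.16 (default low-count filter, 15687 genes kept, TMM scaling, quasi-likelihood test, Benjamini-Hochberg adjustment over all tested genes). Both criteria means an adjusted p below 0.05 with a log2 fold change beyond 1 in either direction, as in the study. Standard errors were derived from the F statistic. Ratios were compared with exact permutation tests (scipy 1.17.1). Library totals of 37787611 to 41516330 set the precision. Pairs of libraries of a group differed by a mean chi-square per gene of 5.41 to 20.3, where sampling noise gives 1, so none was counted as a duplicate. All 6 samples were grouped by their labels.

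The members, gene lists and tests were chosen with earlier results of these data known. By rule the text names all members, the genes of each list past both criteria (the others by range), the overlapping or nearest genes of each member and the 3 genes nearest in pattern to the highest and lowest member. Adora1, Adora3, Ada, Adk, Entpd4, Lrrc8a, Panx1, Slc29a3, Gnaq, Gna15, Gnas, Casp1 and Pycard were named outside that rule for their roles, after their values were seen. Alternatives were upper quartile scaling, library size alone and the size factors of DESeq2, other filters (any gene with 1 count, or 10 counts in every library), the DESeq2 1.42.0 and limma 3.58.1 voom tests, a replicate block, leaving out each library, and the longest transcript as length. The edgeR functions were tested on simulated counts for LPS against control, where 195 of 200 changed genes were recovered on 15214 genes, with 2 false calls. DESeq2 recovered 189 with 0 false calls, and limma voom 195 with 4 false calls. The changed genes were few and split evenly between higher and lower, so the simulation cannot test the choice of scaling for these libraries. The labels call the same replicate numbers batches, and the replicate block treats them as pairs, while the main test does not. Correlations of same-numbered deviations were -0.0139, 0.0822 and 0.0387, and those of differently numbered ones lay between -0.0817 and 0.0446.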

Additional observations from a re-analysis of the deposited data

How the results depend on the processing

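Adora2a, Adora2b, P2ry2, Entpd1 and P2rx7 kept their direction and their side of the adjusted p threshold under all 14 alternatives, and 3 members were higher past both criteria in each. Of the values recomputed, 346 kept direction and call or moved little, 27 moved, 7 turned direction and 3 kept direction and passed the threshold anew. P2ry14 with library size alone, counted among those that turned, also passed it (adjusted p = 3.33e-06). With library size alone, P2rx4 (-0.46), P2ry12 (-0.46), P2ry14 (-0.38), P2ry13 (-0.22) and P2ry6 (-0.16) had negative log2 fold changes, and with the upper quartile P2rx4 was at -0.20 and P2ry14 at -0.12. These scalings move all genes together. Members lower at an adjusted p under 0.05 numbered 5 and 2 under them, against 1. Over all tested genes library size alone gave 2962 lower past both criteria (a filter of 10 counts in every library gave 1027), and 2355 higher and 10336 lower at an adjusted p under 0.05. In the 5 pathway lists it gave 5 lower past both criteria, and 12 higher and 28 lower at an adjusted p under 0.05, and the upper quartile gave 13 lower. DESeq2's size factors, the filter of 10 counts, the DESeq2 test and voom each left 1 lower past both criteria in place of 2, and the DESeq2 test 5 lower at an adjusted p under 0.05 in place of 8.

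Leaving out 1 library at a time gave log2 fold changes of -0.024 to 0.059 for P2ry14, with the negative value without LPS replicate 3. For the pathway lists it gave 1 to 2 lower past both criteria (1 without control replicate 1 or 3, or LPS replicate 1 or 3) and 5 to 8 lower at an adjusted p under 0.05, the 5 without LPS replicate 3. The log2 change of the ratio of Adora2a to Adora2b ranged from -0.64 to 0.022, the highest without control replicate 3, and that of P2ry14 to P2ry12 from -0.0029 to 0.13, the lowest without LPS replicate 3. With the replicate block, the log2 fold change of P2rx4 was -0.06 (adjusted p = 0.0556), and the block changed no call of a member. With the longest transcript as length, control levels were 80.3 RPKM for P2ry6, 73.7 for P2rx4, 37.5 for Entpd1, 24.2 for P2rx7, 4.19 for P2ry2, 3.88 for P2ry14 and 1.81 for P2ry12. The cause of these shifts was not tested beyond the scaling and length themselves. The low control counts of Adora2a limit its fold, and the depth of Nt5e and P2rx6 limits theirs.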
